A study of Drosophila melanogaster with 28 samples.

Results

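The 10 genes described here make transcripts that the Drosophila mother loads into her egg and that germ cells use again later: bicoid (bcd), swallow (swa), exuperantia (exu), orb, oskar (osk), vasa (vas), aubergine (aub), nanos (nos), polar granule component (pgc) and germ cell-less (gcl). They were chosen by symbol in the authors' deposited tables and are 10 of the 17558 genes counted in embryos at 14-16 h after egg laying and 10 of the 17753 counted at 16-18 h. The 10 genes were found by identifier at both ages. Of the 10, vas alone had a different identifier at each age, FBgn0262526 at 14-16 h and FBgn0283442 at 16-18 h.

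In the ovary, nurse cells make these RNAs and pass them to the oocyte, where some are carried to one end of the cell and held untranslated until they are needed. osk RNA at the posterior pole starts the assembly of the germ plasm, the cytoplasm that makes cells become germ cells, while bcd RNA at the anterior pole sets the head end of the body. Most maternal RNA is cleared when the embryo turns on its own genome. In late embryos, transcripts confined to the germline then come chiefly from the few germ cells in the gonads. Whether all of these RNAs are confined in this way was not tested.

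RNA was sequenced from pools of 20 to 30 Drosophila melanogaster embryos. At 14-16 h there were 4 libraries each of nej3, nejEP1179 and the control stock w1118, and at 16-18 h there were 2 of Dfd1, 3 of ez731, 2 of psce22, 3 of psch27, 3 of SppsG8810 and 3 of w1118. nej encodes the acetyltransferase CBP and Dfd a Hox protein of the head. ez731 is named for E(z), the Polycomb histone methyltransferase, psce22 and psch27 for the Polycomb repressor Psc, and SppsG8810 for Spps, which helps to bring Polycomb proteins to DNA. The study describes 1 design for all mutant pools, with the mutant chromosome kept over a balancer chromosome marked with GFP. Flies were kept at 25 degrees, eggs were laid over 2 h, and embryos without GFP and with the mutant shape were picked by hand. nej lies on the X chromosome, of which males carry 1, and the nej3 stock is listed over FM7c. The sex of the embryos in each pool was not examined, so it cannot be told apart from genotype in the nej comparisons. The mothers of the mutant embryos were therefore heterozygous, and the maternal RNA of a mutant pool came from mothers that still had a wild-type copy of the mutated gene. The labels give the same protocol for w1118. They do not say whether the libraries of a group came from separate crosses, so the p-values measure the spread between these samples only.

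Depth was similar across libraries, with total counts of 13129082 to 21509453 at 14-16 h and 17940038 to 22354257 at 16-18 h. Levels are given as CPM, the count of a gene per 1e6 counts of its library, and 3 counts came to between 0.134 and 0.229 CPM. Markers of late embryos (the neuronal genes elav and nSyb, the glial gene repo, the muscle genes Mhc and Act57B and the tracheal gene btl) summed to at least 16940 CPM in every library, so all pools carried late embryonic tissue. nej stood at 227 to 250 CPM in nej3, 355 to 514 CPM in nejEP1179 and 236 to 263 CPM in w1118, so its level checked neither label. The mutated genes did not all follow the labels at 16-18 h. Dfd stood at 7.28 and 9.94 CPM in the libraries labelled Dfd1 against 18.0 to 18.9 CPM in w1118. Psc stood at 313 to 337 CPM in the libraries labelled SppsG8810, at 117 and 124 CPM in replicates 2 and 3 of psch27, and at 24.1 to 31.6 CPM in w1118. E(z) was lowest in the libraries labelled psce22 (14.5 and 15.9 CPM) and in replicate 1 of psch27 (15.7 CPM), against 23.1 to 25.2 CPM in w1118. Spps stood at 14.8 to 15.2 CPM in SppsG8810 against 14.3 to 15.0 CPM in w1118. Each mutant also has a deposited comparison table, and its mean normalized count per gene was matched to sets of count columns. The table named ez731 matched both columns labelled psce22 with replicate 1 of psch27, that named psce22 matched replicates 2 and 3 of psch27, that named psch27 matched the SppsG8810 columns, and that named SppsG8810 matched the ez731 columns. For these 4 groups the names below are those of the library labels, which may not be the genotypes. The calls of the 10 members are also given with the columns grouped as in the deposited tables, while those of other named genes follow the labels only.

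On the dm6 build, bcd (FBgn0000166, 3R 6755842 to 6759466), osk (FBgn0003015, 3R 8935126 to 8938395), nos (FBgn0002962, 3R 19157238 to 19160202) and orb (FBgn0004882, 3R 23260610 to 23280856) lie on chromosome arm 3R. vas (2L 15061656 to 15074311) and aub (FBgn0000146, 2L 10997819 to 11001476) lie on 2L, swa (FBgn0003655, X 6363418 to 6365708) on X, and gcl (FBgn0005695, 2R 8724258 to 8728999), exu (FBgn0000615, 2R 20667427 to 20671083) and pgc (FBgn0016053, 2R 22330200 to 22332813) on 2R. All 10 are protein-coding, and counts were taken over their exons, 1212 bp for pgc and up to 9551 bp for orb. The strand of counting is not given in the sources used here, so reads of overlapping genes on the opposite strand cannot be told apart. This matters most for pgc, which shares 46.9% of its exon length with T3dh on the other strand, then for exu (12.1%, galla-1) and nos (11.5%, CG11779). osk shares 78.5% of its exon length with the non-coding gene lncRNA:osk on its own strand, which has no row of its own in either table. vas shares 24.6% of its exon length with solo on its own strand. solo has a row only at 16-18 h, with a mean of 0.239 CPM in w1118. The same exon length of vas, 2285 bp, was used at both ages.

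In w1118 embryos the 10 transcripts covered a wide range, and gcl stood far above the other 9. Which cells its RNA came from was not tested in these pools of whole embryos. gcl encodes a nuclear envelope protein that germ cells need to form, and its level per kb of exon was 59.6 ± 3.75 CPM per kb at 14-16 h (SD, n = 4) and 86.0 ± 1.91 CPM per kb at 16-18 h (n = 3). vas, the RNA helicase that marks germ cells throughout life, came next with 5.56 ± 0.462 and 3.87 ± 0.300 CPM per kb. At 14-16 h the order was then exu (2.38 ± 0.349), aub (1.59 ± 0.0619), orb (1.19 ± 0.154) and nos (0.821 ± 0.0656 CPM per kb), and the ranges of these neighbours did not overlap. At 16-18 h nos followed vas (1.89 ± 0.156), then aub (1.45 ± 0.0371), orb (0.957 ± 0.152) and exu (0.835 ± 0.184 CPM per kb), and the ranges of orb and exu overlapped. pgc (0.292 ± 0.156 and 0.406 ± 0.290 CPM per kb), osk (0.270 ± 0.0426 and 0.353 ± 0.0859) and swa (0.191 ± 0.0512 and 0.195 ± 0.0790) were low at both ages. The ranges of neighbours in this order overlapped for exu and pgc at 16-18 h, for pgc and osk at both ages, and for osk and swa at 14-16 h. bcd was the lowest with 0.0327 ± 0.0278 and 0.0444 ± 0.0214 CPM per kb, which rested on 0 to 3 counts per library. The library with 0 counts of bcd, w1118 replicate 4 at 14-16 h, allows up to 0.168 CPM. The ages came from different count tables with different gene annotations, so age and table cannot be told apart and no test was made between them.

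In the comparisons at 14-16 h, gene counts of the CBP mutants were set against those of w1118 and against each other. The study made these libraries to assess where transcripts end, which was not examined here. Of the 10 maternal germline transcripts 7 could be tested there, and 1 of the 7 fell in each allele, aub in nej3 and vas in nejEP1179. Over all 10397 genes tested, 11.7% fell in nej3 and 12.3% in nejEP1179, so 1 of 7 is a share near that of all genes. The sum of the 10 transcripts was 173 to 201 CPM in nej3, 188 to 206 CPM in nejEP1179 and 177 to 198 CPM in w1118, most of it gcl. Without gcl the sums were 33.6 to 36.5, 36.9 to 39.5 and 38.3 to 41.8 CPM. The sums without gcl were thus lower in all 4 nej3 libraries than in all 4 of w1118, while those of nejEP1179 overlapped w1118. swa, bcd and pgc had too few counts for the test, so these 3 were compared by CPM.

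aub encodes a Piwi protein that loads piRNAs, the small RNAs that silence transposons in the germline. It stood at 3.26, 3.78, 3.56 and 3.72 CPM in nej3 replicates 1 to 4, at 5.24, 4.62, 4.73 and 5.26 CPM in nejEP1179, and at 5.06, 4.78, 4.70 and 4.65 CPM in w1118. All nej3 libraries lay below all others, and nejEP1179 overlapped w1118. aub fell in nej3 by 0.38 ± 0.11 on the log2 scale (SE, n = 4 against 4, edgeR adjusted p = 0.0151) and was 0.09 ± 0.10 higher in nejEP1179 on that scale, which did not pass (adjusted p = 0.623). nej3 against nejEP1179 tested the difference between the alleles directly, and aub was lower in nej3 by a log2 difference of -0.47 ± 0.11 (adjusted p = 0.0114). The fall in nej3 missed the threshold with DESeq2 (-0.38 ± 0.15, adjusted p = 0.0552). Whether fewer germ cells or less RNA in each germ cell lie behind a lower level cannot be told apart in pools of whole embryos.

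vas stood at 9.93, 8.64, 9.78 and 9.90 CPM in nejEP1179, at 11.8, 10.5, 10.9 and 9.20 CPM in nej3, and at 12.3, 12.5, 11.8 and 14.2 CPM in w1118. All nejEP1179 libraries lay below all w1118 libraries, while nej3 replicate 1 lay within the range of w1118. vas fell in nejEP1179 by 0.37 ± 0.09 on the log2 scale (adjusted p = 0.0086), and its value in nej3 was -0.22 ± 0.09 (adjusted p = 0.092). The alleles did not differ in vas beyond their spread (nej3 against nejEP1179 0.15 ± 0.09, adjusted p = 0.369). An intron of vas holds the abundant gene vig on the other strand, with a mean of 667 CPM in w1118 at this age. solo, which shares exons with vas on its own strand, has no row of its own at this age. The part of either gene in the counts of vas was not tested.

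The other tested transcripts did not pass in any of the 3 comparisons. osk stood at 0.250, 0.398, 0.351 and 0.915 CPM in nej3 against 0.651 to 0.896 CPM in w1118, with 3 nej3 libraries below and replicate 4 above all of w1118 (log2 difference -0.65 ± 0.35, adjusted p = 0.198). Without replicate 4 of nej3 it passed (-1.14 ± 0.33, adjusted p = 0.023), so 1 library decided that call. The log2 differences of nos (0.29 ± 0.18 in nej3 and 0.27 ± 0.18 in nejEP1179), orb (-0.14 ± 0.11 and 0.10 ± 0.11), exu (-0.04 ± 0.11 and 0.08 ± 0.11) and gcl (0.03 ± 0.07 and 0.13 ± 0.07) had SEs of this size and adjusted p from 0.203 to 0.838. For swa, bcd and pgc, exact two-sided permutation tests of CPM were run in the 3 comparisons, 9 tests in all, where the smallest possible p was 0.0286. The lowest p was that of swa in nej3, with 0.187 ± 0.0524 against 0.386 ± 0.104 CPM in w1118 (SD, n = 4 each, exact permutation p = 0.0571, adjusted over the 9 tests p = 0.514). bcd gave 5 counts or fewer in every library at this age.

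The share of all tested genes that rose was 12.3% in nej3 against w1118, 12.6% in nejEP1179 against w1118 and 5.0% in nej3 against nejEP1179, where 4.30% were lower. The median log2 difference of the 7 members was -0.14 in nej3, 0.09 in nejEP1179 and -0.12 between the alleles, against -0.01, 0.00 and 0.00 over all genes tested. Eggshell and yolk transcripts were low at this age. The 16 eggshell genes summed to 1.89 to 2.91 CPM in nej3, 0.381 to 1.51 CPM in nejEP1179 and 2.90 to 4.28 CPM in w1118, and the 3 yolk protein genes to at most 5.91 CPM. Of these, only 2 eggshell genes and 1 yolk protein gene had enough counts for the test. Vm26Aa fell in both alleles and Yp3 rose in nej3. The 4 genes of the somatic gonad (tj, Sox100B, eya and zfh1), which other embryonic tissues also express, summed to 266 to 293 CPM in nej3. Their sums were 284 to 328 CPM in nejEP1179 and 282 to 288 CPM in w1118. Sox100B fell in nejEP1179 (log2 difference -0.39 ± 0.13, edgeR adjusted p = 0.0429). The other 3 did not pass there, nor did any of the 4 in nej3. The 6 late embryo markers summed to 18770 to 21060 CPM in nej3, 17920 to 19830 CPM in nejEP1179 and 16940 to 18170 CPM in w1118. All nej3 libraries thus lay above all of w1118. In nej3 Act57B, Mhc and btl rose and repo fell, and in nejEP1179 btl rose and repo fell. Over all genes tested, 11.7% fell in nej3 and 12.3% in nejEP1179. The part of these sources in the falls of aub and vas was not tested.

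**Figure D1:**
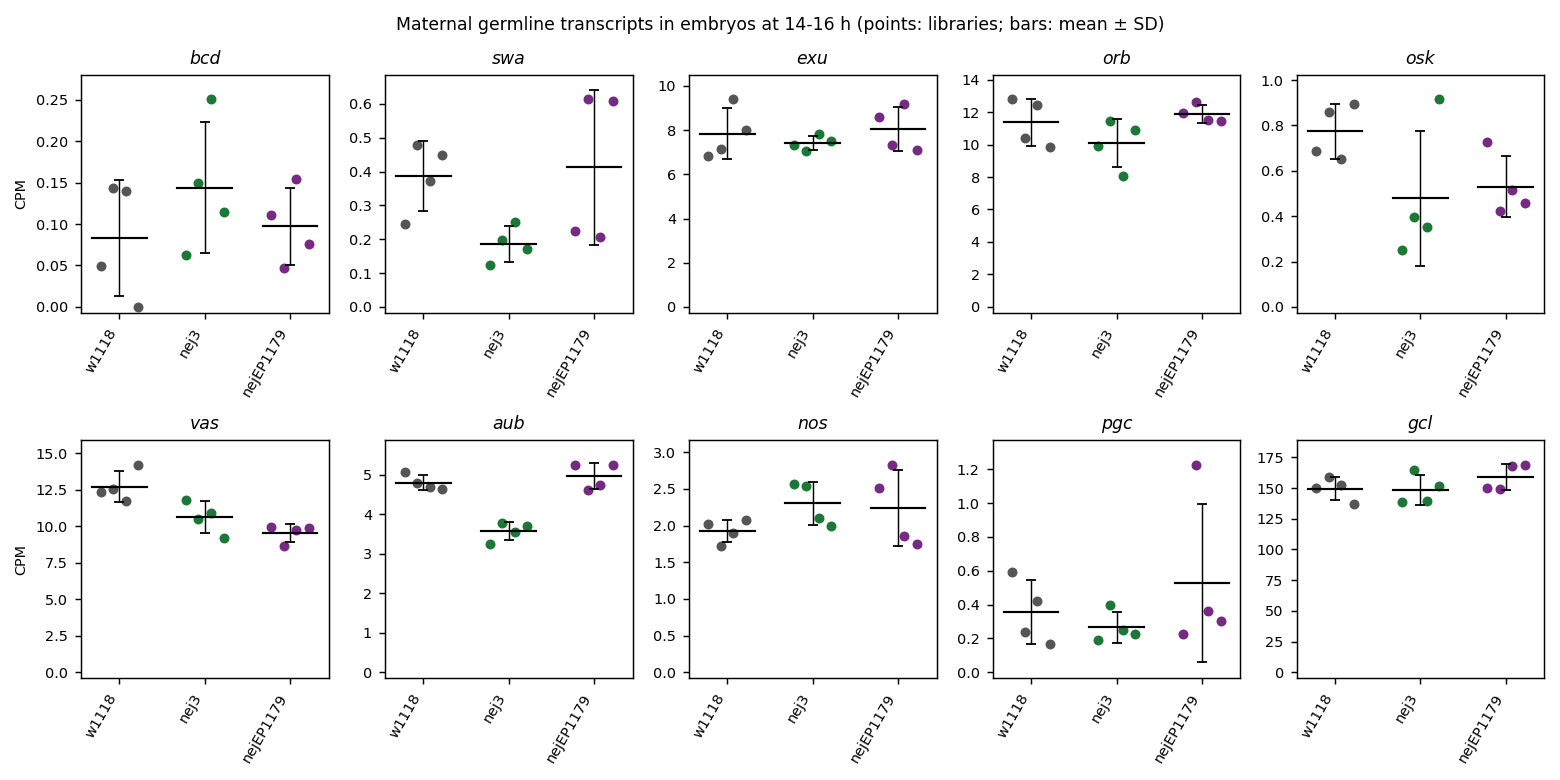
CPM of each of the 10 transcripts in embryos at 14-16 h, on linear axes that begin at 0, with 1 point per library (replicates 1 to 4 from left to right) and bars for the mean ± SD. The 4 nej3 points of aub lie between 3.26 and 3.78 CPM and below all others, and the 4 nejEP1179 points of vas lie between 8.64 and 9.93 CPM and below all w1118 points.

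In both nej alleles squ, armi and fs(1)N were among the genes of the maternal and germline lists that fell. Of 22 piRNA pathway genes tested, 5 fell and 1 rose in nej3, and 2 fell in nejEP1179. Over all genes tested, 12.3% rose and 11.7% fell in nej3, and 12.6% rose and 12.3% fell in nejEP1179. Between the alleles 5.0% of all genes were higher in nej3 and 4.30% lower. squ, a piRNA pathway protein of the germline, fell from 4.30 ± 0.188 to 2.44 ± 0.479 CPM in nej3 (log2 difference -0.78 ± 0.14, adjusted p = 9.03e-04) and to 3.10 ± 0.404 CPM in nejEP1179 (-0.42 ± 0.14, adjusted p = 0.0389). armi, an RNA helicase needed to make piRNAs, fell from 9.57 ± 0.970 to 6.63 ± 0.511 CPM in nej3 (-0.49 ± 0.12, adjusted p = 0.00606) and to 6.02 ± 1.03 CPM in nejEP1179 (-0.62 ± 0.12, adjusted p = 0.00126). mael, a protein that acts in piRNA silencing, rose in nej3 (0.58 ± 0.16, adjusted p = 0.0171). Between the alleles 1 piRNA gene passed, Gasz, a mitochondrial scaffold of piRNA biogenesis, with -0.77 ± 0.22 (adjusted p = 0.0389). The count that fell in nej3 was 2 to 5 with single libraries left out, with 2 when nej3 replicate 4 or w1118 replicate 3 was left out. The median log2 difference of the list was -0.21 in nej3 and 0.04 in nejEP1179.

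Of 23 genes for RNA localisation and translation, 3 rose in nej3, and 2 rose and 1 fell in nejEP1179. The shares of all genes that rose and fell were 12.3% and 11.7% in nej3 and 12.6% and 12.3% in nejEP1179. Between the alleles they were 5.0% and 4.30%. The translational repressor brat (0.40 ± 0.08, adjusted p = 0.00242), the RNA-binding protein stau that carries osk and bcd RNA (0.22 ± 0.05, adjusted p = 0.00322) and the transport adaptor egl (0.13 ± 0.04, adjusted p = 0.0328) rose in nej3. In nejEP1179, tud, a scaffold of the germ plasm, rose by 0.19 ± 0.05 (adjusted p = 0.0101), stau rose by 0.14 ± 0.05 (adjusted p = 0.0474), and mago, an exon junction protein needed to place osk RNA, fell by 0.16 ± 0.05 (adjusted p = 0.0367). Between the alleles tud (-0.21 ± 0.05, adjusted p = 0.0122) and the orb paralog orb2 (-0.35 ± 0.09, adjusted p = 0.0324) were lower and brat (0.32 ± 0.08, adjusted p = 0.0252) was higher in nej3. Of 12 germ cell development genes, 1 fell in nej3, the germ cell migration receptor gene Tre1 (-0.24 ± 0.05, adjusted p = 0.00139). With edgeR 0 of the 12 passed in nejEP1179 and 0 between the alleles, where 3 each were under 0.05 before adjustment, and the calls of DESeq2 were 1 and 0.

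Of 15 genes for egg activation, the axes of the oocyte and the maternal clock, 1 rose and 3 fell in nej3, and 1 rose and 2 fell in nejEP1179. The shares of all genes that rose and fell were 12.3% and 11.7% in nej3 and 12.6% and 12.3% in nejEP1179. fs(1)N, an egg membrane protein, fell from 3.37 ± 0.736 to 0.603 ± 0.209 CPM in nej3 (log2 difference -2.44 ± 0.25, adjusted p = 3.5e-06) and to 1.21 ± 0.251 CPM in nejEP1179 (-1.41 ± 0.22, adjusted p = 2.53e-04), and the difference between the alleles passed (-1.03 ± 0.28, adjusted p = 0.0338). dl, the transcription factor of the dorsal-ventral axis, rose in nej3 (0.37 ± 0.06, adjusted p = 4.08e-04) and nejEP1179 (0.24 ± 0.06, adjusted p = 0.0108), and spz, the ligand upstream of it, fell (-0.20 ± 0.05, adjusted p = 0.00851, and -0.23 ± 0.05, adjusted p = 0.00439).

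In the comparisons at 16-18 h, gene counts of the libraries labelled for a Hox gene or a Polycomb factor were set against w1118. These libraries too were made to assess where transcripts end. The libraries labelled Dfd1 stood apart. In them 9 of the 10 maternal germline transcripts rose at 16-18 h and 1 (gcl) did not pass, while over all 11366 genes tested 25.5% rose and 27.0% fell. The median log2 difference of the 10 was 3.01, against 0.015 over all genes. The transcripts that were lowest in w1118 had the largest values, and both Dfd1 libraries lay above all 3 w1118 libraries for each of the 9. The share of all genes without overlap was not counted, here or in the other comparisons at this age. With either Dfd1 library alone the count was still 9, where the lone library is assumed to vary like the other groups. bcd passed the filter on low counts only through the libraries rich in eggshell transcripts described below, which include both labelled Dfd1. It also passed the filter with both Dfd1 libraries left out, but not without the 4 libraries richest in eggshell transcripts. The count of 9 thus includes 1 member, bcd, that was tested only through libraries where it was high. Its call is no independent support.

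osk was at 104 and 30.1 CPM in Dfd1 replicates 1 and 2 and at 0.947, 1.28 and 0.804 CPM in w1118. In counts this was 2276 and 560 reads against 16 to 28, so replicate 1 held 3.47 times the level of replicate 2 and both were above all of w1118. The log2 difference was 5.87 ± 0.86 (n = 2 against 3, edgeR adjusted p = 2.02e-04). bcd was at 11.9 and 2.63 CPM against 0.150, 0.138 and 0.0502 CPM. The w1118 values rest on 3, 3 and 1 counts against 259 and 49, a ratio of pooled CPM of 67.2 (95% exact interval 32.2 to 168, counting error only), and the log2 difference was 5.76 ± 0.92 (adjusted p = 2.8e-04). swa encodes an RNA-binding protein that keeps bcd RNA at the anterior pole. It stood at 34.8 and 11.0 CPM against 0.548, 0.229 and 0.402 CPM, again with no overlap (log2 difference 5.68 ± 0.68, adjusted p = 4.06e-05). pgc, whose product silences transcription in newly formed germ cells, was at 36.2 and 10.9 CPM against 0.898, 0.275 and 0.302 CPM (5.4 ± 0.87, adjusted p = 3.38e-04). T3dh, which overlaps pgc on the other strand, stood at 15.1 to 27.5 CPM over all libraries of this age.

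exu, a protein that helps to carry bcd RNA, was at 46.9 and 19.9 CPM against 2.49, 3.44 and 2.31 CPM (log2 difference 3.43 ± 0.41, adjusted p = 3.59e-05). nos, the posterior repressor of translation, was at 45.2 and 15.0 CPM against 4.19, 4.86 and 4.27 CPM (2.59 ± 0.35, adjusted p = 8.54e-05). Both had the same order of libraries as osk, with Dfd1 replicate 1 highest and replicate 2 next. orb, an RNA-binding protein that activates stored osk RNA, was at 52.6 and 24.4 CPM against 9.03, 7.75 and 10.7 CPM (1.91 ± 0.25, adjusted p = 6.13e-05). vas was at 45.9 and 20.5 CPM against 8.28, 8.62 and 9.60 CPM (1.74 ± 0.25, adjusted p = 1.08e-04), and aub at 19.9 and 10.2 CPM against 4.39, 4.49 and 4.27 CPM (1.61 ± 0.29, adjusted p = 5.74e-04). These 3 rose by less on the log2 scale than the 6 members before them. gcl was at 237 and 250 CPM against 211, 221 and 215 CPM, above w1118 in both libraries but with a log2 difference of 0.01 ± 0.10 (adjusted p = 0.912) after library scaling.

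**Figure D2:**
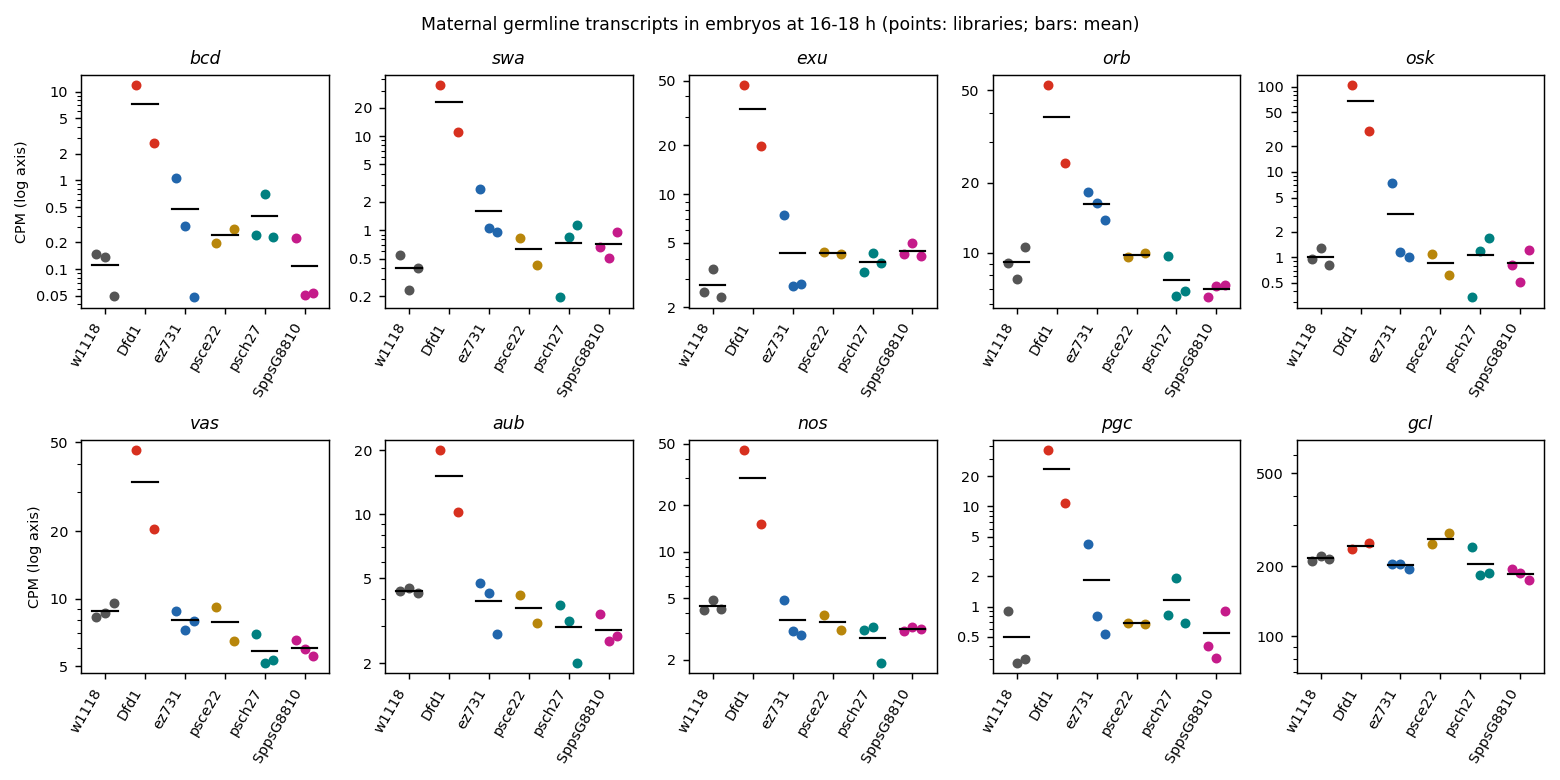
CPM of each of the 10 transcripts in the 16 libraries at 16-18 h on log axes, with 1 point per library (replicates from left to right) and a bar for the mean of each label. Both Dfd1 points lie above all w1118 points, with osk at 104 and 30.1 CPM. ez731 replicate 1 lies above the other ez731 libraries for all 10 transcripts, by little for gcl.

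The 2 libraries labelled Dfd1 differed from each other in the same direction for 9 members. Replicate 1 was 1.95 to 4.51 times replicate 2 over the 9 members that rose, with a median of 3.01, while gcl had a ratio of 0.949. After the w1118 mean was taken off, the ratio of the excess was 2.57 (exu) to 4.66 (bcd), with a median of 3.24. Markers of the eggshell, which follicle cells of the ovary make, and of the yolk rose in the same libraries. The 16 eggshell genes (9 chorion genes, 6 vitelline membrane genes and dec-1) all rose, and their sum was 3234 and 925 CPM in Dfd1 replicates 1 and 2 against 3.62 to 27.7 CPM in w1118. Their ratio between the replicates was 1.95 to 3.72 with a median of 3.47. All 3 yolk protein genes rose, with sums of 1115 and 354 CPM against 4.92 to 9.72 CPM and ratios of 3.12 to 3.20. The part of these sources in the rise of the germline transcripts was not tested.

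Markers of other sources showed smaller differences. Of 5 genes of the cellularising embryo, nullo and Sry-alpha were at 0 in both Dfd1 libraries, bnk was at 0.0458 and 0 CPM, halo at 0.0458 and 0.322 CPM, and slam at 5.63 and 2.85 CPM against 1.92 ± 0.296 CPM in w1118 (SD, n = 3). slam, which builds new cell membranes, thus rose (log2 difference 0.98 ± 0.37, adjusted p = 0.0393). The 5 genes summed to 5.72 and 3.17 CPM in Dfd1 replicates 1 and 2 and to 1.88 to 2.24 CPM in w1118. The 10 testis genes summed to between 0.550 and 1.02 CPM against 0.402 to 1.15 CPM. The 4 somatic gonad genes summed to 190 and 194 CPM against 150 to 182 CPM. Of the 6 late embryo markers, 4 fell and 2 did not pass, and they summed to 21140 and 22540 CPM against 25820 to 26320 CPM. The part of these sources was likewise not tested.

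**Figure D3:**
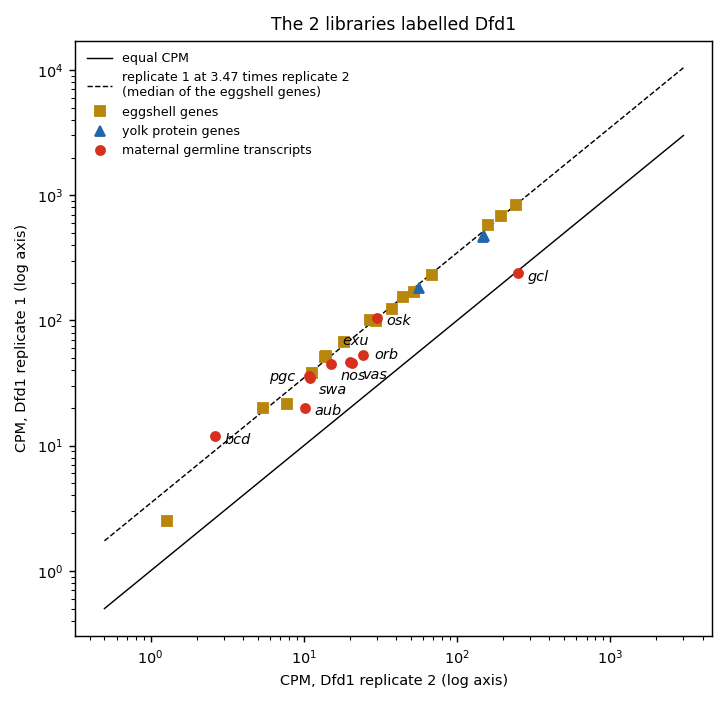
CPM in Dfd1 replicate 1 against replicate 2 on log axes for the 10 maternal germline transcripts (circles), 16 eggshell genes (squares) and 3 yolk protein genes (triangles), with lines for equal CPM and for the median eggshell ratio of 3.47. The 9 transcripts that rose lie at ratios of 1.95 to 4.51, and gcl lies on the line of equal CPM at a ratio of 0.949.

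Many genes of the 4 maternal and germline lists also rose in Dfd1, where 25.5% of all genes tested rose and 27.0% fell. Of 23 tested genes for egg activation, the oocyte axes and the maternal clock, 16 rose, 1 fell and 6 did not pass, with a median log2 difference of 2.28. wisp, the poly(A) polymerase that extends tails of stored RNAs at egg activation, rose from 0.589 ± 0.293 to 40.4 ± 30.8 CPM (SD, n = 3 and 2, log2 difference 5.90 ± 0.84, adjusted p = 1.61e-04). clos, a component of the egg membranes, rose from 0.567 ± 0.0309 to 10.2 ± 6.09 CPM (3.98 ± 0.48, adjusted p = 3.52e-05), and fs(1)M3, another egg membrane protein, from 0.568 ± 0.112 to 8.40 ± 6.19 CPM (3.71 ± 0.44, adjusted p = 2.94e-05). Of 26 piRNA pathway genes 20 rose, 1 fell and 5 did not pass, with a median of 1.26. nxf2 (1.99 ± 0.21, adjusted p = 1.31e-05), del (1.63 ± 0.21, adjusted p = 6.48e-05) and rhi (3.32 ± 0.45, adjusted p = 8.06e-05), of which del and rhi bind the loci that piRNAs come from, were among them. Without Dfd1 replicate 1 the count that rose was 11 of 26.

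Of 15 germ cell development genes 11 rose and 4 did not pass, with a median of 0.84. They included stwl (1.54 ± 0.10, adjusted p = 4.32e-07), the translational regulator mei-P26 (0.70 ± 0.09, adjusted p = 4.1e-05) and otu, which oocytes need to form, from 0.732 ± 0.274 to 28.3 ± 19.4 CPM (5.09 ± 0.66, adjusted p = 7.26e-05). Of 23 genes for RNA localisation and translation 14 rose, 2 fell and 7 did not pass, with a median of 0.44. The repressor complex members tral (0.83 ± 0.11, adjusted p = 5.51e-05) and me31B (1.40 ± 0.19, adjusted p = 7.69e-05) and the methyltransferase csul (1.3 ± 0.17, adjusted p = 7.26e-05) rose. Over all genes tested 25.5% rose, 27.0% fell and the median was 0.015. These lists overlap in function with the members and were chosen with earlier results of these data known, so they are not independent of them.

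In the libraries labelled ez731, 2 of the 10 members rose, swa and orb, against 13.2% of all genes that rose and 15.8% that fell. orb was at 18.2, 16.4 and 13.8 CPM in replicates 1 to 3, and all 3 lay above w1118 (9.03, 7.75 and 10.7 CPM). Its log2 difference was 0.87 ± 0.23 (n = 3 each, edgeR adjusted p = 0.0129), and it passed also without replicate 1. swa was at 2.73, 1.06 and 0.960 CPM, above all of w1118 (2.03 ± 0.68, adjusted p = 0.0399). Without replicate 1 it did not pass (1.44 ± 0.71, adjusted p = 0.159). The count was 0 without w1118 replicate 2, where orb had 0.77 (adjusted p = 0.0575), and 1 without w1118 replicate 1, w1118 replicate 3 or ez731 replicate 2.

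Replicate 1 of ez731 was unlike the other 2. osk was at 7.53, 1.16 and 1.01 CPM, pgc at 4.24, 0.806 and 0.528 CPM, bcd at 1.06, 0.302 and 0.0480 CPM, and exu at 7.47, 2.72 and 2.79 CPM in replicates 1 to 3. Replicate 1 was above all of w1118 for these 4, while replicates 2 and 3 lay within the range of w1118 for osk, pgc and exu and on either side of it for bcd, and none of the 4 passed (adjusted p = 0.111 to 0.199). The same library held 270 CPM of eggshell transcripts against 20.1 and 18.0 CPM in the other 2, and 1060 CPM of yolk protein transcripts against 86.2 and 76.5 CPM. vas (8.81, 7.26 and 7.97 CPM), aub (4.74, 4.29 and 2.74 CPM), nos (4.85, 3.07 and 2.88 CPM) and gcl (205, 204 and 195 CPM) did not pass either, with adjusted p from 0.597 to 0.81, although all 3 libraries of gcl lay below w1118. Over all libraries, the eggshell genes had 3 of 16 that rose and the yolk protein genes 3 of 3, and their part in the values of the members was not tested. The median log2 difference of the 10 members was 0.78, against -0.01 over all genes.

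Across the 16 libraries at this age, the 3 libraries with the most osk were also the 3 with the most eggshell transcripts. osk was 3.22, 3.25 and 2.79 CPM per 100 CPM of eggshell transcripts in Dfd1 replicates 1 and 2 and ez731 replicate 1. Over all 16 libraries this ratio was 0.587 to 71.9, and the highest was that of SppsG8810 replicate 3, which had the fewest eggshell transcripts (1.71 CPM) and osk at 1.23 CPM. psch27 replicate 2 had 201 CPM of eggshell transcripts, but only 0.587 CPM of osk per 100 CPM of them and 23.8 CPM of yolk transcripts. The yolk transcripts were 34.5 and 38.3 CPM per 100 CPM of eggshell transcripts in the Dfd1 libraries and 393, 430 and 426 in the 3 ez731 libraries.

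**Figure D4:**
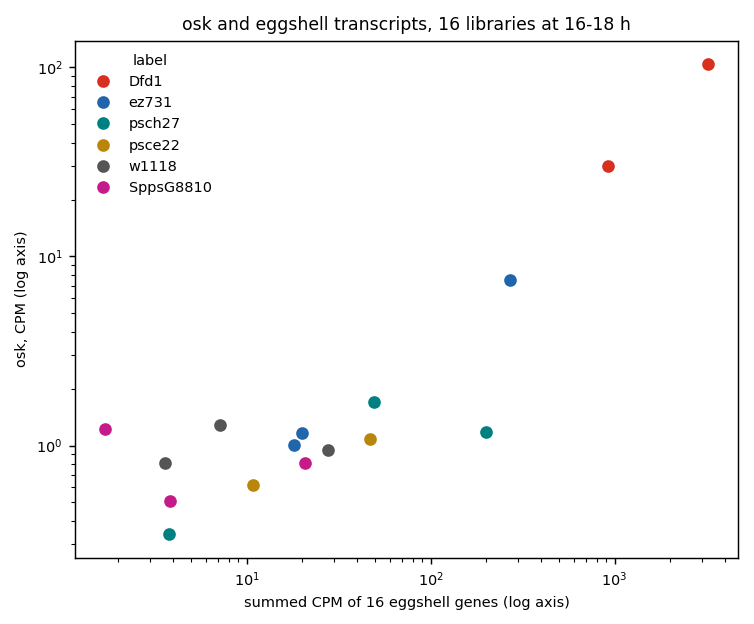
CPM of osk against the summed CPM of 16 eggshell genes in each of the 16 libraries at 16-18 h, both on log axes, coloured by label. Dfd1 replicates 1 and 2 and ez731 replicate 1 lie at the upper right with osk at 104, 30.1 and 7.53 CPM, and psch27 replicate 2 has 201 CPM of eggshell transcripts with osk at 1.18 CPM.

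None of the 10 members passed in the libraries labelled psce22, psch27 or SppsG8810 with edgeR. Over all genes, 17.7% rose and 21.9% fell in psce22, 3.48% and 4.0% in psch27, and 3.43% and 5.43% in SppsG8810. At an unadjusted p under 0.05, 1 member was higher in psce22 (gcl, against 22.8% of all genes higher at that p), 1 was lower in psch27 (vas, against 11.0%) and 3 were lower in SppsG8810 (vas, aub and gcl, against 12.7%). DESeq2 called 1 member in psce22 (gcl, log2 difference 0.26 ± 0.11, adjusted p = 0.0404) and 0 in psch27 and SppsG8810. The median log2 difference of the 10 was 0.15, 0.01 and -0.24.

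The SEs in these comparisons came from a fit that shared 1 estimate of the spread over all 16 libraries at this age. These included the Dfd1 and ez731 libraries and the psch27 replicates, which carried different levels of E(z) and Psc. For gcl in the columns labelled SppsG8810, the SE was 0.0862 in this fit and 0.0547 with columns grouped by deposited table. In SppsG8810, vas was at 6.53, 5.95 and 5.57 CPM, aub at 3.40, 2.54 and 2.68 CPM, nos at 3.09, 3.25 and 3.16 CPM, orb at 6.44, 7.22 and 7.28 CPM, and gcl at 194, 187 and 175 CPM. All 3 libraries lay below all 3 of w1118 for each of these 5, while exu (4.25, 4.98 and 4.18 CPM) lay above w1118. How many of all genes lay apart from w1118 in this way was not counted. With only SppsG8810 and w1118 in the fit, 8 members could be tested, 5 fell and 1 (exu) rose, against 14.2% and 12.1% of 10586 genes. In that fit the log2 differences were -0.55 ± 0.10 for vas (adjusted p = 0.00334), -0.60 ± 0.15 for aub (0.0132), -0.49 ± 0.14 for nos (0.0223), -0.39 ± 0.13 for orb (0.0442), -0.22 ± 0.05 for gcl (0.00678) and 0.70 ± 0.18 for exu (0.0145). In the shared fit vas had nearly the same difference with a larger SE (-0.55 ± 0.23, adjusted p = 0.18). Without both Dfd1 libraries in the shared fit, vas fell (-0.55 ± 0.15, adjusted p = 0.0356) and the other members did not pass.

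In psch27, vas was at 6.99, 5.19 and 5.31 CPM, nos at 3.11, 3.25 and 1.92 CPM and aub at 3.74, 3.16 and 2.02 CPM, all below w1118. Their log2 differences were -0.59 ± 0.23 (adjusted p = 0.156), -0.68 ± 0.34 (0.269) and -0.55 ± 0.28 (0.267). bcd lay above w1118 in all 3 libraries, at 0.229 to 0.707 CPM (1.76 ± 1.06, adjusted p = 0.372). Without both Dfd1 libraries in the fit vas fell here too (-0.58 ± 0.14, adjusted p = 0.0328). psch27 is the label whose replicates carried different levels of E(z) and Psc. For gcl replicate 1 was at 242 CPM and replicates 2 and 3 at 183 and 187 CPM, on either side of w1118 at 211 to 221 CPM. In psce22, gcl was at 248 and 276 CPM, above w1118 (0.23 ± 0.10, adjusted p = 0.0688), and exu at 4.37 and 4.30 CPM, also above w1118 (0.61 ± 0.42, adjusted p = 0.268), as was bcd at 0.196 and 0.286 CPM (1.01 ± 1.25, adjusted p = 0.551). nos at 3.93 and 3.10 CPM (-0.39 ± 0.38, adjusted p = 0.44) and aub at 4.17 and 3.10 CPM (-0.32 ± 0.31, adjusted p = 0.437) lay below w1118. With only psce22 and w1118 in the fit, 2 of 9 members tested rose, exu (0.63 ± 0.20, adjusted p = 0.0294) and gcl (0.26 ± 0.07, adjusted p = 0.0132), against 26.6% of all genes.

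With the columns grouped as in the deposited tables, gcl was the member that passed in 3 of the 4 comparisons. In the columns of the ez731 table, which had the lowest E(z), gcl was at 248, 276 and 242 CPM and rose by 0.205 ± 0.05 on the log2 scale (adjusted p = 0.00544, 1 of 10 members, against 24.7% of all genes that rose). In those of the psce22 table it was at 183 and 187 CPM and fell by 0.195 ± 0.06 on the log2 scale (adjusted p = 0.0475, 1 member, against 7.66% of genes that fell), and in those of the psch27 table at 194, 187 and 175 CPM it fell by 0.22 ± 0.05 (adjusted p = 0.011, 1 member, against 10.4%). These 2 sets are those with high Psc. gcl did not overlap with w1118 in any of these 3. In the columns of the SppsG8810 table, the libraries labelled ez731, swa and orb rose as above (2 members, against 19.3% of genes that rose). With the Dfd1 libraries also left out, 4 members fell in the psce22 columns, vas by 0.72 ± 0.14 (adjusted p = 0.00331), gcl by 0.19 ± 0.06 (0.036), orb by 0.42 ± 0.13 (0.0427) and nos by 0.75 ± 0.24 (0.0437), against 8.84% of all genes that fell in that fit. In the psch27 columns 3 fell, vas by 0.55 ± 0.12 (adjusted p = 0.00639), gcl by 0.22 ± 0.05 (0.00853) and orb by 0.39 ± 0.12 (0.0325), against 11.6% of all genes. All of these are on the log2 scale, and these 2 sets share their w1118 libraries.

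**Figure D5:**
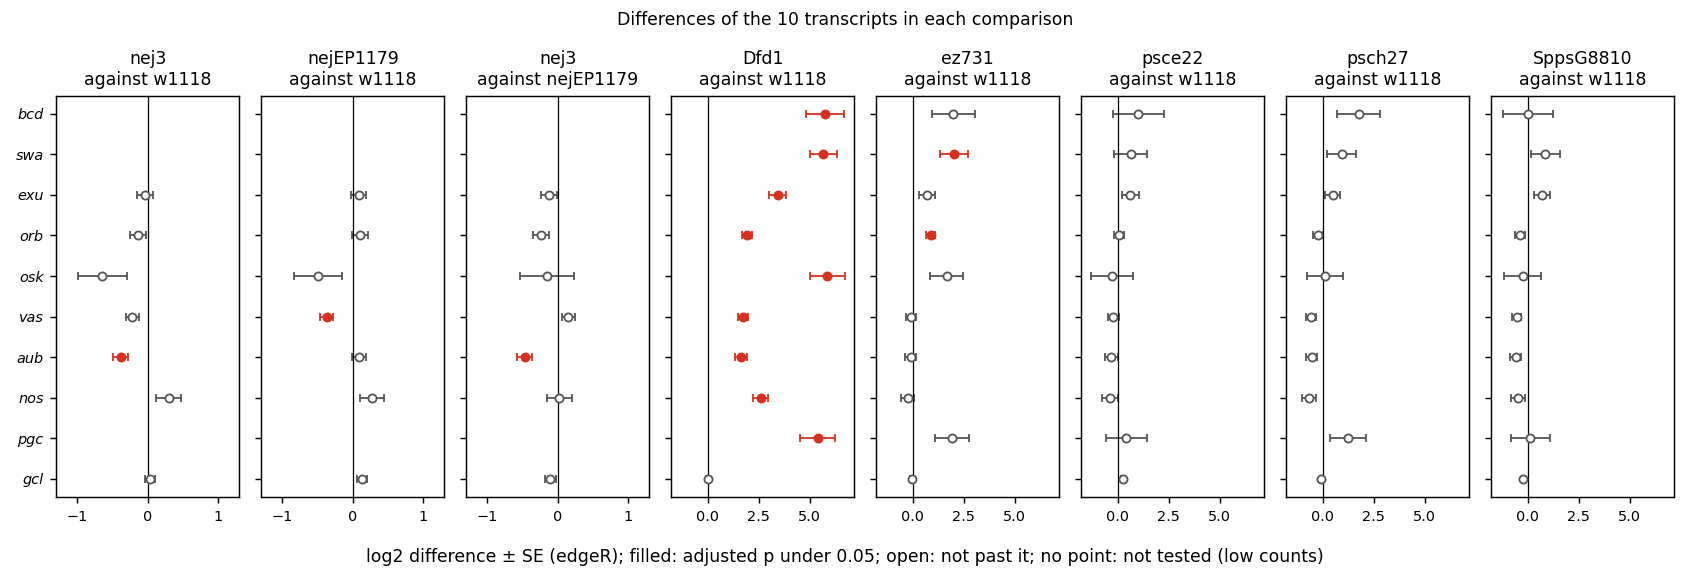
log2 difference ± SE from edgeR for each of the 10 transcripts in the 8 comparisons, grouped by the labels, with filled points for an adjusted p under 0.05, and with a narrower axis for the nej comparisons. In Dfd1, 9 points lie between 1.61 and 5.87, and in psce22, psch27 and SppsG8810 all 10 points are open.

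Some genes of the 4 maternal and germline lists passed in each of these 4 groups as labelled, and their counts are given beside the share of all genes. Their calls with the columns grouped by deposited table are not given. In ez731, capu, an actin nucleator that the oocyte needs to place osk RNA (0.68 ± 0.09, adjusted p = 2.66e-04), brat (0.36 ± 0.11, adjusted p = 0.0222), mael (1.53 ± 0.26, adjusted p = 0.00112) and mei-P26 (0.66 ± 0.08, adjusted p = 1.1e-04) rose. There vls, a partner of csul in the germ plasm (-0.71 ± 0.12, adjusted p = 0.00108), Hen1, which methylates piRNAs (-0.59 ± 0.15, adjusted p = 0.0114), and the lipid phosphatase wun2 that guides germ cells (-0.44 ± 0.07, adjusted p = 8.88e-04) fell. Of the lists, 4 of 23 localisation and translation genes rose and 1 fell, 1 of 26 piRNA genes rose and 4 fell, 1 of 15 germ cell development genes rose and 4 fell, and 1 of 23 egg activation and axis genes rose and 2 fell, where 13.2% of all genes rose and 15.8% fell. In psce22 brat (0.61 ± 0.12, adjusted p = 0.00345), the exon junction protein gene tsu (0.41 ± 0.09, adjusted p = 0.0047), the actin nucleator gene spir (0.35 ± 0.07, adjusted p = 0.00476) and the germline transcription factor gene ovo (0.82 ± 0.16, adjusted p = 0.00398) rose, and papi, a mitochondrial piRNA factor, fell (-0.92 ± 0.21, adjusted p = 0.00641). There the counts that rose and fell were 12 and 1, 0 and 4, 5 and 1, and 2 and 4, against 17.7% and 21.9% of all genes. The counts of localisation and germ cell genes that rose were 2 and 0 with edgeR without psce22 replicate 2, and 7 and 4 without replicate 1. In psch27 the counts were 1 and 0, 0 and 2, 2 and 2, and 0 and 1, against 3.48% and 4.0% of all genes, and in SppsG8810 2 and 0, 0 and 2, 1 and 2, and 0 and 3, against 3.43% and 5.43%.

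piwi, the nuclear Piwi protein, fell in psch27 (-0.79 ± 0.19, adjusted p = 0.0259) and SppsG8810 (-0.75 ± 0.19, adjusted p = 0.0271), from 13.2 ± 0.795 CPM in w1118 to 7.61 ± 1.32 and 7.87 ± 0.290 CPM (SD, n = 3 each). shu, a cochaperone of piRNA loading, fell in psce22 (-0.99 ± 0.29, adjusted p = 0.0184), ez731 (-0.84 ± 0.26, adjusted p = 0.0257) and SppsG8810 (-0.90 ± 0.26, adjusted p = 0.0441). tut, a partner of bam in germ cell differentiation, fell in psce22 (-2.15 ± 0.35, adjusted p = 0.00183), psch27 (-1.47 ± 0.28, adjusted p = 0.00843) and SppsG8810 (-1.35 ± 0.28, adjusted p = 0.0103), and the chromatin reader Phf7 fell in the last 2 (-1.20 ± 0.23, adjusted p = 0.00757, and -1.18 ± 0.23, adjusted p = 0.00661). mei-P26 rose in psch27 (0.48 ± 0.08, adjusted p = 0.00315) and SppsG8810 (0.36 ± 0.08, adjusted p = 0.0127). ea, a protease of the dorsal-ventral axis, fell in all 4 groups, from 22.4 ± 2.95 CPM in w1118 to 8.04 ± 0.978 (ez731), 2.16 ± 0.830 (psce22), 5.20 ± 2.37 (psch27) and 5.65 ± 0.110 CPM (SppsG8810), with adjusted p from 6.82e-04 to 0.007. These comparisons share their w1118 libraries and follow the labels, where psch27 mixes columns of the deposited ez731 and psce22 tables.

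The genes whose levels followed the members most closely, among those with a mean of at least 5 CPM at that age, differed by age. Over the 16 libraries at 16-18 h, the 5 genes nearest to osk by Pearson correlation of log2 CPM were wisp (r = 0.976), Pxt (0.967), alphaTub67C (0.96), CycB (0.956) and CG15721 (0.955). For nos they were vas (0.971), lok, CG9915, dUTPase and me31B (0.96), for vas they were nos, eEF1beta, mud, grp and piwi (0.951), and for aub they were nos (0.969), vas, CG9915, piwi and jumu (0.947). For orb they were CG16953 (0.972), HipHop, GstT3, del and grp (0.926). These values rest largely on the Dfd1 libraries. Over the 14 libraries without them, wisp was nearest to osk (0.859), followed by CG13114, dhd, Pxt and Dcr-2 (0.811), and nos was nearest to aub (0.845). The nearest gene became CG1529 for nos (0.818), Mip for vas (0.938) and Cyp9c1 for orb (0.949), vas was no longer among the 5 nearest to nos nor nos among those to vas, and all 5 genes nearest to orb were others. Over the 12 libraries at 14-16 h, the nearest gene was CG32006 for osk (0.934), CR43670 for nos (0.869), Ssl1 for vas (0.953), CG15630 for orb (0.858) and dac for aub (0.953). None of the 5 nearest genes of a member was another member. At this age nos, aub, osk, swa, bcd and pgc had means under 5 CPM and could not be listed, so this absence and the difference by age rest partly on that limit. The points share their libraries and groups, so these are descriptions with no test.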

How the data were processed

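RNA of hand-picked embryo pools was sequenced as short reads. For either age the authors deposited a table of raw counts over genes. The submitters' processing notes name featureCounts, DESeq2 and the dm6 build, and the versions are not given in the sources used here. The authors also deposited DESeq2 tables per mutant, whose mean normalized count (a signal) was used only to find the columns behind each table, over genes with a mean above 10. Their fold changes and p-values were not used.

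The members and gene lists were chosen with earlier results of these data known. Groups came from the labels, and no library was left out. The alternatives were DESeq2, RLE scaling, no filter, fits restricted to the compared groups, a replicate block, each library left out in turn, and the columns grouped by deposited table. The fits without the Dfd1 libraries or the 4 libraries richest in eggshell transcripts were chosen after seeing the data. Each count table was fitted once with edgeR 4.0.16 (filterByExpr, TMM, glmQLFit robust, glmQLFTest, group as the only term), and p-values were adjusted over all genes by the Benjamini-Hochberg method (threshold 0.05). Every adjusted p is from edgeR unless another test is named. Of the 10 members, 7 passed the filter on low counts at 14-16 h and 10 at 16-18 h. bcd did not pass without the 4 libraries richest in eggshell transcripts. The genes named were all members, the mutated genes, up to 3 genes of each list per comparison by smallest adjusted p, and the 5 genes of highest correlation (prior count 2, mean of at least 5 CPM) for 5 members. Positions and exon lengths came from Ensembl 115. The test was run on simulated data with 200 changed genes. Replicate numbers did not pair the samples. R 4.3.3, DESeq2 1.42.0, Python 3.11.15, SciPy 1.17.1 and matplotlib 3.10.9 were used. Counts carry no molecular identifiers, so intervals cover counting error only.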

Additional observations from a re-analysis of the deposited data

Results flagged for a closer look

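In nejEP1179, replicate 2 was low for vas with 8.64 CPM against 9.78 to 9.93 CPM in the other 3 libraries, and high for pgc with 1.23 CPM against 0.223 to 0.360 CPM. The gap was over 0.829 of the range of the group in both, and such gaps occur by chance in about 1 in 20 groups, with 30 groups examined. The difference of aub between the nej alleles passed the direct test, with a log2 difference of -0.47 (adjusted p = 0.0114 with edgeR).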

How the results depend on the processing

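The counts of members called against w1118 (1 for nej3, 2 for ez731 and 0 for the 3 other Polycomb labels) moved as follows. DESeq2 called 0 in nej3 and 1 in psce22. Without the filter on low counts ez731 had 1. With only the groups compared in the fit, psce22 had 2 and SppsG8810 had 6. With the columns grouped by deposited table the counts were 1 for each of ez731, psce22 and psch27 and 2 for SppsG8810. With the Dfd1 libraries also left out they were 1 for ez731, 4 for psce22, 3 for psch27 and 2 for SppsG8810, while SppsG8810 had 1 without the column labelled ez731 replicate 1. Without both Dfd1 libraries psch27 and SppsG8810 had 1 each, and without the 4 libraries richest in eggshell transcripts ez731, psce22 and psch27 had 1 each and SppsG8810 had 2. All settings here that leave libraries out were chosen after seeing the data. Log2 differences that passed in either setting and changed sign did so under the grouping by deposited table, which compares other columns: gcl to 0.205 and, without Dfd1, 0.215 in ez731, gcl to -0.195 and -0.194 and orb to -0.425 in psce22, and orb to 0.873, 0.882 and, without the column labelled ez731 replicate 1, 0.807 in SppsG8810.

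With single libraries left out, nej3 had 1 to 2, ez731 0 to 2 and psch27 0 to 1 members called, where psch27 gained gcl without its replicate 1 (-0.195, adjusted p = 0.0499). nejEP1179 and the comparison of the alleles stayed at 1, Dfd1 at 9, and psce22 and SppsG8810 at 0.

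Same-numbered libraries did not deviate together in every pair (correlations from -0.508 to 0.503), and 4 or fewer pairs existed per comparison. A fit with the replicate number as a block called 1 member in nej3, 1 in nejEP1179, 1 between the alleles, 9 in Dfd1, 2 in ez731 and 0 in psce22, psch27 and SppsG8810, so the block moved no count.

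The genes called over the whole table moved too. With only the groups compared in the fit, SppsG8810 went from 390 up and 617 down to 1285 and 1498, psch27 from 396 and 455 to 20 and 40, and nej3 against nejEP1179 from 520 and 447 to 307 and 256. With the columns grouped by deposited table, ez731 went from 1498 and 1792 to 2804 and 3251, psce22 from 2015 and 2485 to 722 and 871, psch27 to 886 and 1185, and SppsG8810 to 2195 and 2610. Without psce22 replicate 2, psce22 had 377 and 425. Of the members, bcd rested on the fewest counts, with 0 to 3 in each w1118 library.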
